A study of Mus musculus with 10 samples.

Results

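T cell receptor β (TRB) chains were compared between dermal αβ T cells sorted for CD103 and dermal αβ T cells sorted without regard to CD103, all from Tcrd-/- mice. The CD103 sorts were chosen by their labels and make up 2 of the 10 samples of the series: 1 library of CD103+ cells and 1 library of CD103hi cells. They were set against the 2 dermal libraries gated without CD103, called bulk dermal A and bulk dermal B here. All 4 came from ear skin of the strain B6.129P2-Tcrdtm1Mom/J (Tcrd-/-), so the comparison holds no mouse with γδ T cells. Bulk dermal cells were gated as living CD45+CD3+TCRβ+ cells, and the sorts carried a further gate for CD103 on top of that. Each sample pooled cells from 5 to 18 animals, so no value per animal exists. The labels do not give the ages of the mice, the number of sorted cells or whether the CD103+ gate includes the CD103hi cells. The remaining samples (3 epidermal Tcrd-/- libraries, a Tcrd-/- lymph node library and 2 wild-type libraries) served only to place these values.

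Tcrd encodes the constant part of the T cell receptor δ chain. Without it no γδ T cells form, and αβ T cells take up space in the skin that γδ T cells hold in wild-type mice. CD103 is the integrin αE chain, which pairs with integrin β7 to bind E-cadherin on epithelial cells and is carried by many tissue-resident T cells of the skin. A β chain is made by joining a V, a D and a J segment. The enzyme TdT can add bases at the joints that no segment encodes, and a chain joined before TdT is active carries few of them. The joint lies in the CDR3, the loop that contacts antigen, so a repertoire can be read as the segments used, the size of each clone, the length of the CDR3 and the number of inserted bases.

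The CD103+ library held 42849 reads in 492 clonotypes and the CD103hi library 31823 reads in 457 clonotypes. Bulk dermal A held 52910 reads in 235 clonotypes and bulk dermal B 41602 reads in 77 clonotypes. Reads with the same V segment, J segment and nucleotide CDR3 were counted as 1 clonotype. Every clonotype carried TRB segments, which is the only check of cell identity that these receptor libraries allow. Taking 3 counts as its upper limit, a segment with no read may still hold up to 0.00700% and 0.00943% of reads in the CD103+ and CD103hi libraries, and of 0.00567% and 0.00721% in bulk dermal A and B. By the names in their descriptions the libraries form 3 sets. Both CD103 sorts belong to a set that holds no bulk dermal library, and bulk dermal A and B belong to a different set each. CD103 gating and library set therefore cannot be told apart among these 4 libraries, and each set's epidermal Tcrd-/- library is given beside the main results. The 2 sorts are different gates rather than replicates, so the difference between gates enters the spread of their group. Reads were not tagged by molecule, and intervals and limits here cover counting error only.

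Large clonotypes give examples of single junctions in each library. Each CDR3 is written from its conserved cysteine codon onwards, with capitals for bases that the deposited segment positions assign to no segment. The largest clonotype of each library and 3 insert-free CD103hi clonotypes are shown.
CD103+ largest, TRBV20 TRBJ2-2: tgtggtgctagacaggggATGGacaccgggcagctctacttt
CD103hi largest, TRBV12-2 TRBJ1-4: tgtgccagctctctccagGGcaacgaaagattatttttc
CD103hi insert-free, TRBV1 TRBJ2-5: tgcacctgcagtgaagacacccagtacttt
CD103hi insert-free, TRBV20 TRBJ2-5: tgtggtgctagccaagacacccagtacttt
CD103hi insert-free, TRBV31 TRBJ2-5: tgtgcctggagtcaagacacccagtacttt
Bulk dermal A largest, TRBV13-3 TRBJ2-5: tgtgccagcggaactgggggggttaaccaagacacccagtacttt
Bulk dermal B largest, TRBV13-3 TRBJ2-7: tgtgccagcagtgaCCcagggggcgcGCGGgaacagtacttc
The largest CD103+ clonotype took 5.51% of reads with 4 inserted bases. The largest CD103hi clonotype took 7.04% with 2 inserted bases by the deposited positions and 0 by exact match to reference segments. The 3 insert-free CD103hi junctions were 10 residues long, joined V directly to TRBJ2-5 with no D segment assigned, and took 4.36%, 2.25% and 1.95% of reads. Large clonotypes that were insert-free by both assignments also occurred in the other libraries. A TRBV13-2 TRBJ2-7 clonotype took 2.97% of CD103+ reads and a TRBV4 TRBJ2-2 clonotype 2.77% of bulk dermal A reads. In bulk dermal B a TRBV29 TRBJ1-5 clonotype took 1.75%. All of these had a D segment assigned. The largest bulk dermal A clonotype, 15 residues long, took 13.5% of reads with 0 inserted bases by the deposited positions and 5 by exact match to reference segments. The largest bulk dermal B clonotype, 14 residues long, took 10.7% with 6 inserted bases by the deposited positions and 8 by that match. All these segments lie in the Tcrb locus on chromosome 6 (GRCm38, GENCODE M21), where TRBV13-3 spans chr6:41130147-41130585 on the plus strand and TRBV31 lies inverted at chr6:41557691-41558452 on the minus strand.

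Clones were smaller and more even in both CD103 sorts than in both bulk libraries. The 10 largest clonotypes took 25.4% of CD103+ reads and 29.8% of CD103hi reads, against 43.3% of bulk dermal A reads and 62.6% of bulk dermal B reads. To reach 50% of reads took 29 CD103+ and 26 CD103hi clonotypes, against 14 in bulk dermal A and 7 in bulk dermal B. Only 3 clonotypes had at least 1000 reads in the CD103+ library and 3 in the CD103hi library, and they held 12.4% and 15.5% of reads. In bulk dermal A 18 clonotypes had at least 1000 reads and held 60.1%, and in bulk dermal B 14 did and held 73.7%. A count of 1000 reads is a different share of each library. Clonotypes over 1% of reads overlapped in number, at 35 CD103+ and 26 CD103hi against 30 in bulk dermal A and 26 in bulk dermal B. Those over 2% numbered 4 and 6 in the CD103+ and CD103hi libraries, against 16 in bulk dermal A and 16 in bulk dermal B. At the other end, single-read clonotypes made up 48.8% of CD103+ and 45.5% of CD103hi clonotypes, against 40.4% in bulk dermal A and 37.7% in bulk dermal B. In the plot of cumulative reads by clonotype rank, both sort lines lie below both bulk lines at every rank marked.

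**Figure D1:**
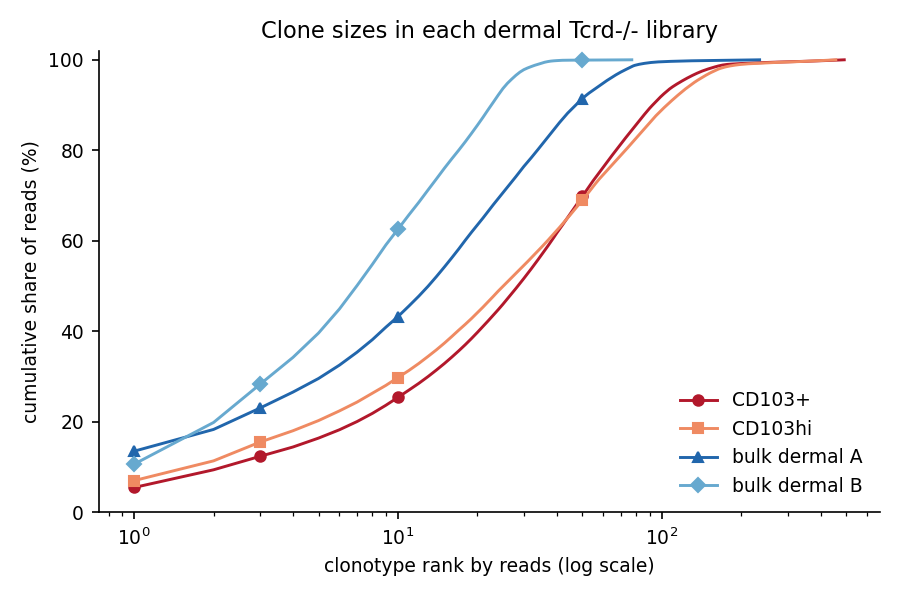
Cumulative share of reads (%) against clonotype rank by reads (log scale) in each dermal Tcrd-/- library, 1 line per library, with symbols at ranks 1, 3, 10 and, where marked, 50. At rank 10 the CD103+ and CD103hi lines stand at 25.4% and 29.8%, below bulk dermal A at 43.3% and bulk dermal B at 62.6%.

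At an equal depth of 31823 reads, 427 clonotypes were expected in the CD103+ library and 457 in the CD103hi library, against 194 in bulk dermal A and 70.0 in bulk dermal B. The log2 inverse Simpson index, which grows as reads spread over more clones, was 6.14 and 5.90 in the CD103+ and CD103hi libraries, against 4.80 and 4.28 in bulk dermal A and B. The groups did not overlap in any of these 3 measures. The mean share of the 10 largest clonotypes was 27.6 ± 3.09% in the sorts and 52.9 ± 13.6% in the bulk libraries (SD, n = 2 each), a difference of -25.3 percentage points (exact two-sided permutation p = 0.333, the smallest that 6 splits of 4 libraries allow). That p was the same for all 8 measures compared in this way, and so was its Benjamini-Hochberg adjusted value. Without bulk dermal B the difference was -15.7 percentage points.

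The epidermal libraries of the same sets varied widely in clone size. Their 10 largest clonotypes took 24.7% of reads in the set of the sorts, 37.4% in the set of bulk dermal A and 84.4% in the set of bulk dermal B. Taken as a difference from the epidermal library of its own set, that share was +0.751 and +5.12 percentage points in the CD103+ and CD103hi libraries, against +5.87 in bulk dermal A and -21.8 in bulk dermal B. The sorts then exceeded the bulk libraries by 10.9 points, so the direction turned. The log2 inverse Simpson index turned likewise, with a difference of -0.42 between sorts and bulk libraries instead of +1.48. Clonotype number kept its direction, at 74.2 and 104 above the epidermal library of the set in the CD103+ and CD103hi libraries, against 89.0 below it in bulk dermal A (a value of -89.0) and 8.20 above it in bulk dermal B. Gate and library set cannot be told apart in the clone-size result.

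TRBV13-3 was the leading segment of both bulk libraries, and both sorts held less of it. It took 12.4% of CD103+ reads and 7.69% of CD103hi reads, against 44.6% of bulk dermal A reads and 36.5% of bulk dermal B reads. A few large clones held much of the bulk share. The 3 largest bulk dermal A clonotypes carried TRBV13-3, at 13.5%, 4.80% and 4.73% of reads. So did the bulk dermal B clonotypes of rank 1 and 3, at 10.7% and 8.44%. By distinct clonotypes TRBV13-3 took 14.8% in the CD103+ library and 8.10% in the CD103hi library, against 22.1% in bulk dermal A and 15.6% in bulk dermal B. The groups did not overlap on either scale, although the CD103+ and bulk dermal B clonotype shares lay close together. The read share averaged 10.1 ± 3.36% in the sorts and 40.6 ± 5.77% in the bulk libraries (SD, n = 2 each), a log2 fold change of -2.01 ± 0.39 (SE). This did not pass edgeR's quasi-likelihood test with Benjamini-Hochberg adjustment (adjusted p = 0.123). It did pass when the CD103+ library was left out (log2 fold change -2.40, adjusted p = 0.00139), and adjusted p ranged between 1.08e-06 (DESeq2 with library totals) and 0.618 (library set as a block) over the alternatives run, with a negative fold change in each. The epidermal library of the sorts' set had 22.3% TRBV13-3 reads, more than either sort, whereas the epidermal libraries of the sets of bulk dermal A and B had 3.69% and 7.43%, far less than either bulk library.

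Of 26 TRBV segments seen in the 4 libraries, 7 were higher in both sorts than in both bulk libraries by reads and 3 were lower, and by clonotypes 2 were higher and 4 lower. edgeR called 0 of 23 segments tested by reads (0%) and 0 of 20 tested by clonotypes (0%), with 3 and 0 of them under an unadjusted p of 0.05. DESeq2 called 5 of the 23 by reads (21.7%) and 0 of the 20 by clonotypes. Those 5 were TRBV13-1, TRBV17 and TRBV21, higher in the sorts, and TRBV13-3 and TRBV9, lower. TRBV9, a pseudogene in the annotation, had reads in bulk dermal A alone among the 4 libraries. TRBV21 was a single incomplete CDR3, found in both sorts and bulk dermal A.

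TRBV17 and TRBV2 were the 2 segments with higher shares in both sorts on both scales. TRBV17 took 1.96% of CD103+ reads and 7.13% of CD103hi reads, against 0.0151% in bulk dermal A and 0.224% in bulk dermal B. Its clonotype share was 2.44% and 7.66% in the CD103+ and CD103hi libraries, against 1.28% and 1.30% in bulk dermal A and B, where those shares rest on 3 clonotypes and 1 clonotype. The log2 fold change of TRBV17 was 5.25 ± 2.52 by reads (SE, adjusted p = 0.381) and 1.94 ± 1.33 by clonotypes (adjusted p = 0.867) in edgeR's quasi-likelihood test. TRBV2 took 0.392% of CD103+ reads and 0.424% of CD103hi reads and was absent from both bulk libraries, at least 63.4-fold higher when the bulk mean is set to the limit of 3 counts per library. It had 10 CD103+ and 3 CD103hi clonotypes, against 0 in either bulk library, and its edgeR adjusted p was 0.331 by reads and 0.867 by clonotypes.

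TRBV12-2 and TRBV5 were among the leading segments of the sorts by reads. TRBV12-2 took 3.65% of CD103+ reads and 21.5% of CD103hi reads, against 0.593% in bulk dermal A and 1.91% in bulk dermal B. By clonotypes the TRBV12-2 shares overlapped, at 4.07% and 10.1% in the CD103+ and CD103hi libraries against 4.26% and 2.60% in bulk dermal A and B. The CD103hi library was thus high on both scales, and the CD103+ library lay inside the bulk range by clonotypes. TRBV5 took 8.77% of CD103+ reads and 16.6% of CD103hi reads, against 4.69% and 6.53% in bulk dermal A and B. Its clonotype shares overlapped too, at 5.89% and 19.9% in the CD103+ and CD103hi libraries against 3.83% and 11.7% in bulk dermal A and B. The edgeR adjusted p by reads was 0.376 for TRBV12-2 and 0.428 for TRBV5. TRBV12-2 has a near-identical neighbour in TRBV12-1 and the TRBV13 segments resemble each other, and how the authors assigned reads between such copies is not given in the sources used here.

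TRBV13-1 and TRBV15, named after their values were seen, were also higher by reads in both sorts. TRBV13-1 took 6.74% of CD103+ and 8.64% of CD103hi reads, against 0.115% in bulk dermal A and 0.897% in bulk dermal B. Counted by clonotypes, TRBV13-1 shares overlapped, at 4.67% and 7.44% in the CD103+ and CD103hi libraries against 3.83% and 9.09% in bulk dermal A and B. The bulk libraries therefore held TRBV13-1 clonotypes, and these clonotypes had few reads. TRBV15 took 2.77% of CD103+ and 0.415% of CD103hi reads, against 0.0529% in bulk dermal A and 0 in bulk dermal B.

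**Figure D2:**
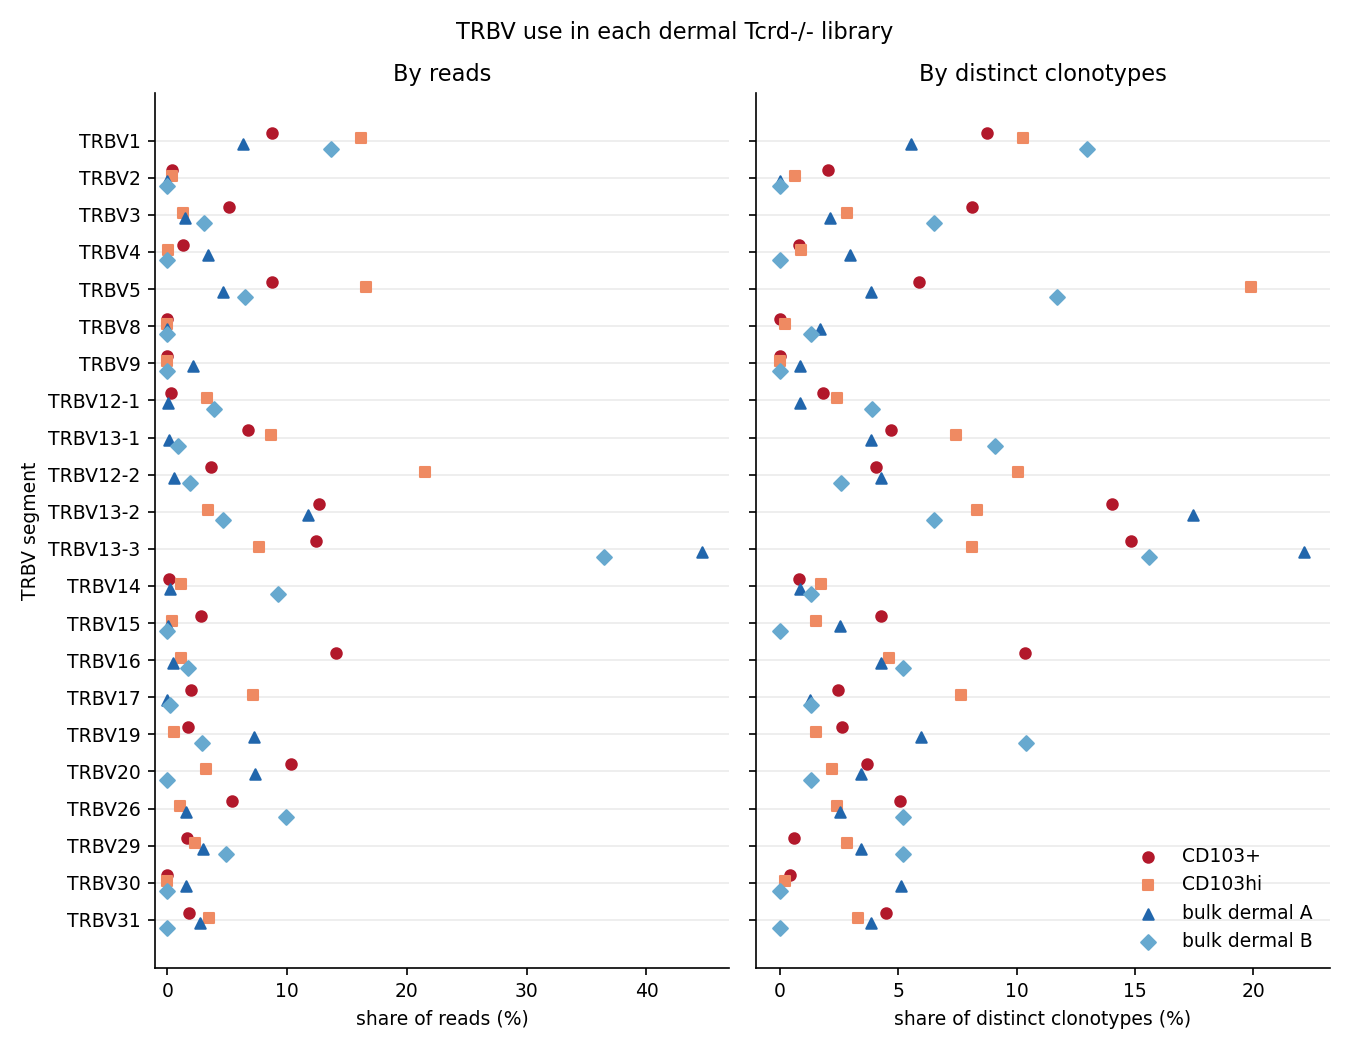
Share (%) of reads (left panel) and of distinct clonotypes (right panel) for each TRBV segment that reached 1% in any of the 4 dermal Tcrd-/- libraries, 1 symbol per library, segments in genome order down the page. TRBV13-3 reads stand at 12.4% and 7.69% in the CD103+ and CD103hi libraries and at 44.6% and 36.5% in bulk dermal A and B, and the 2 groups lie closer together in the clonotype panel.

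TRBV19 and TRBV29 went with TRBV13-3 in having lower shares in both sorts on both scales. TRBV19 took 1.71% of CD103+ and 0.566% of CD103hi reads, against 7.26% in bulk dermal A and 2.86% in bulk dermal B. Its clonotype share was 2.64% and 1.53% in the CD103+ and CD103hi libraries, against 5.96% and 10.4% in bulk dermal A and B, a log2 fold change of -1.88 ± 1.09 (SE, edgeR adjusted p = 0.867). TRBV29 took 1.61% and 2.28% of CD103+ and CD103hi reads, against 2.97% and 4.92% in bulk dermal A and B. It took 0.610% and 2.84% of CD103+ and CD103hi clonotypes, against 3.40% and 5.19% in bulk dermal A and B (edgeR adjusted p = 0.965). TRBV8, a pseudogene, also had lower clonotype shares in both sorts and was too rare to be tested.

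TRBV19 and TRBV13-3 are among the β segments named for mouse mucosal-associated invariant T (MAIT) cells. Together they took 14.2% of CD103+ and 8.26% of CD103hi reads, against 51.9% in bulk dermal A and 39.3% in bulk dermal B. Their joint clonotype share was 17.5% and 9.63% in the CD103+ and CD103hi libraries, against 28.1% and 26.0% in bulk dermal A and B. Both segments had a negative fold change and neither passed the test. Their median log2 fold change was -2.08 by reads beside 0.32 over all 23 TRBV segments. By clonotypes it was -1.31 beside 0.16 over all 20. This list was chosen with earlier results of these data known. TRBV13-1 and TRBV13-2, of the same family as TRBV13-3, had log2 fold changes of 3.93 and -0.03 by reads. A β segment does not identify a MAIT cell, and the α chain was not sequenced.

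TRBV13-2, TRBV29 and TRBV1, the β segments of mouse invariant natural killer T (NKT) cells, took about the same joint share of reads in every library. It was 23.0% and 21.9% in the CD103+ and CD103hi libraries, against 21.03% and 23.3% in bulk dermal A and B. By clonotypes the joint share was 23.4% and 21.4% in the CD103+ and CD103hi libraries, against 26.4% and 24.7% in bulk dermal A and B. None of the 3 passed the test, and their median log2 fold change was -0.03 by reads and -0.17 by clonotypes. TRBV1 alone took 8.74% and 16.2% of CD103+ and CD103hi reads, against 6.29% and 13.7% in bulk dermal A and B, and TRBV13-2 took 12.6% and 3.42% against 11.8% and 4.63%. Both overlapped between the groups on both scales.

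Among families, the TRBV12 family took 3.92% of CD103+ and 24.8% of CD103hi reads, against 0.643% and 5.78% in bulk dermal A and B. The TRBV13 family took 31.8% and 19.7% of CD103+ and CD103hi reads, against 56.5% and 42.0% in bulk dermal A and B. By clonotypes both families overlapped, and the TRBV13 family stood at 33.5% and 23.9% in the CD103+ and CD103hi libraries against 43.4% and 31.2% in bulk dermal A and B. TRBV16 was high in the CD103+ library alone, at 14.1% of reads, with 1.11% in the CD103hi library and 0.457% and 1.75% in bulk dermal A and B. Its clonotype share was 10.4% in the CD103+ library and 4.60% in the CD103hi library, against 4.26% and 5.19% in bulk dermal A and B. TRBV26 took 5.42% and 1.06% of CD103+ and CD103hi reads, against 1.57% and 9.94% in bulk dermal A and B.

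The 6 TRBJ1 segments seen took 32.5% of CD103+ and 30.0% of CD103hi clonotypes, against 26.8% in bulk dermal A and 22.1% in bulk dermal B. The mean was 31.2 ± 1.80% in the sorts and 24.4 ± 3.35% in the bulk libraries (SD, n = 2 each), a difference of 6.81 percentage points without overlap (exact two-sided permutation p = 0.333). It was 4.44 points without bulk dermal B, and 11.2 and 12.3 points with at least 2 and at least 10 reads per clonotype. By reads the cluster took 34.9% and 34.5% in the CD103+ and CD103hi libraries, against 23.3% and 30.3% in bulk dermal A and B. The epidermal library of the sorts' set had 20.9% TRBJ1 clonotypes, below both sorts, while those of the sets of bulk dermal A and B had 24.2% and 29.2%.

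Within the TRBJ1 cluster, TRBJ1-1, TRBJ1-3, TRBJ1-5 and TRBJ1-6 were higher by clonotypes in both sorts. TRBJ1-1 took 11.8% of CD103+ and 9.85% of CD103hi clonotypes, against 9.79% in bulk dermal A and 5.19% in bulk dermal B (edgeR adjusted p = 0.795). TRBJ1-3 took 5.69% of CD103+ and 8.53% of CD103hi clonotypes, against 3.40% in bulk dermal A and 2.60% in bulk dermal B, a log2 fold change of 1.15 ± 0.44 (SE, edgeR adjusted p = 0.334). TRBJ1-5 took 4.27% and 3.94% of CD103+ and CD103hi clonotypes, against 1.70% and 2.60% in bulk dermal A and B (edgeR adjusted p = 0.334). TRBJ1-3 and TRBJ1-5 were also higher by reads in both sorts, with 4.49% and 7.39% TRBJ1-3 reads in the CD103+ and CD103hi libraries against 1.71% and 0.286% in bulk dermal A and B. TRBJ1-6, the rarest TRBJ segment here, had 2 CD103+ and 3 CD103hi clonotypes and none in either bulk library. It took 0.0163% of CD103+ and 0.471% of CD103hi reads, so its read share rests mainly on the CD103hi library.

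In the TRBJ2 cluster, TRBJ2-3 was lower and TRBJ2-4 higher by reads in both sorts. TRBJ2-3 took 6.30% of CD103+ and 12.7% of CD103hi clonotypes, against 14.9% in bulk dermal A and 16.9% in bulk dermal B, and 5.17% and 6.73% of CD103+ and CD103hi reads, against 13.1% and 7.81% in bulk dermal A and B. Its fold change turned positive, to 0.12 by clonotypes and 1.12 by reads on the log2 scale, once library set was fitted with the epidermal libraries. TRBJ2-4 took 7.26% and 8.25% of CD103+ and CD103hi reads, against 3.04% and 1.12% in bulk dermal A and B, and overlapped by clonotypes. TRBJ2-7 took 21.3% and 17.9% of CD103+ and CD103hi clonotypes, against 21.7% and 15.6% in bulk dermal A and B. In all, 4 of 12 TRBJ segments were higher and 1 lower by reads without overlap, and 4 were higher and 2 lower by clonotypes. edgeR called 0 of 12 by reads (0%) and 0 of 11 by clonotypes (0%), with 0 under an unadjusted p of 0.05 in either, and DESeq2 also called 0 in both. The median log2 fold change was 0.38 by clonotypes for TRBJ1 segments and 0.00 for TRBJ2 segments, beside 0.02 over all 11 tested, and by reads 1.38 and -0.27 beside 0.19 over all 12.

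**Figure D3:**
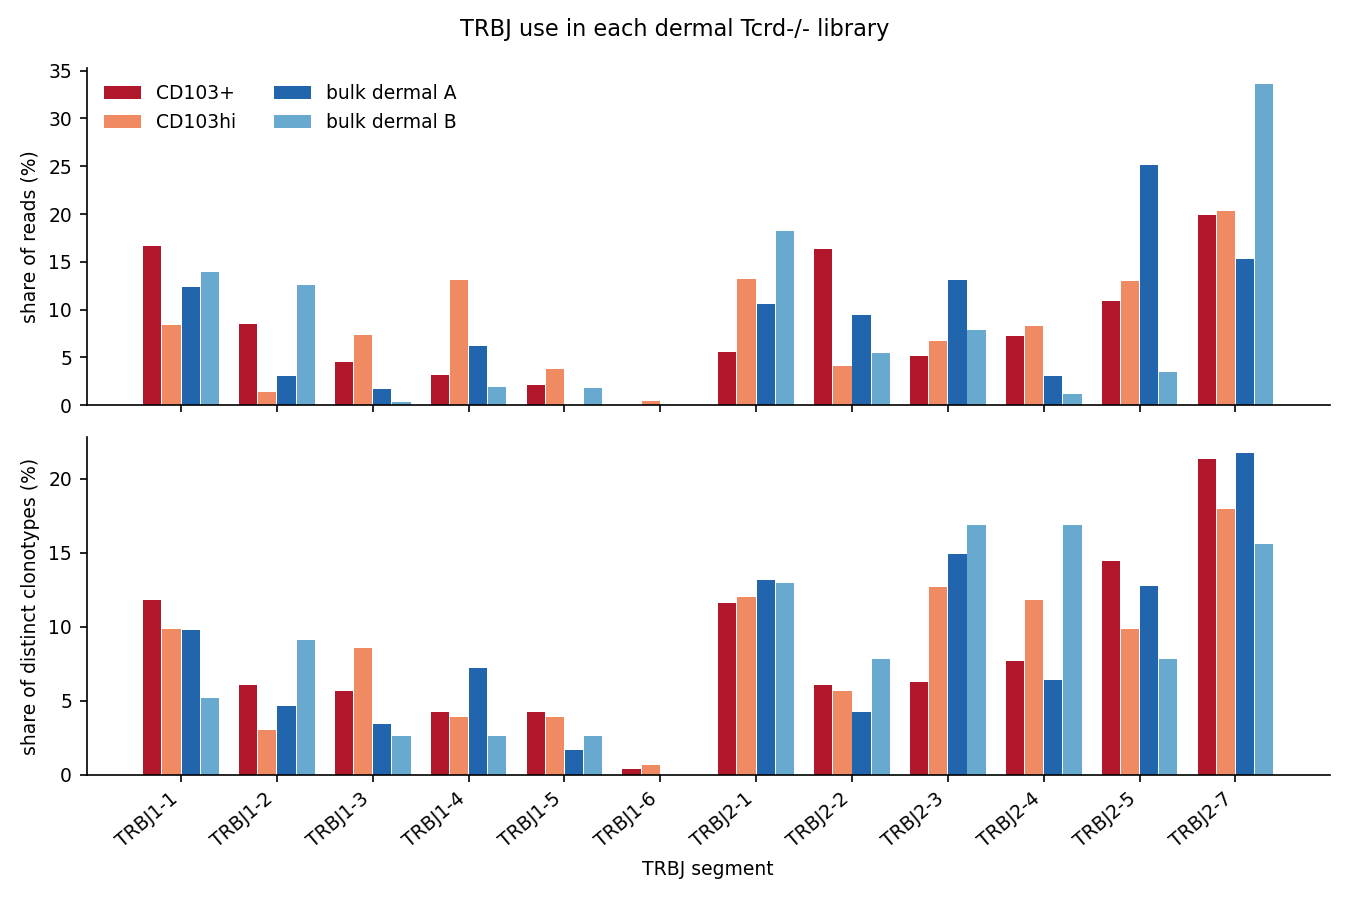
Share (%) of reads (upper panel) and of distinct clonotypes (lower panel) for each of the 12 TRBJ segments seen, 1 bar per dermal Tcrd-/- library. TRBJ1-3 clonotypes stand at 5.69% and 8.53% in the CD103+ and CD103hi libraries, above 3.40% and 2.60% in bulk dermal A and B, while TRBJ2-7 overlaps between the groups.

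The 4 libraries used 200 V-J pairs, of which the CD103+ library held 135 and the CD103hi library 130, against 99 in bulk dermal A and 50 in bulk dermal B. Only 19 pairs occurred in all 4, whereas 37 occurred in both sorts and in neither bulk library, and 3 in both bulk libraries and in neither sort. The libraries also differed in their number of clonotypes, and the pairs found in only 1 group were not recounted at an equal number. At an equal 77 clonotypes, 53.3 and 52.3 pairs were expected in the CD103+ and CD103hi libraries, against 51.7 in bulk dermal A and the 50 pairs of bulk dermal B itself, a difference of 1.97 pairs (exact two-sided permutation p = 0.333), or 1.10 without bulk dermal B.

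Of the 200 pairs, 55 were higher by read share in both sorts than in both bulk libraries, 11 were lower and 134 overlapped. By clonotype share 48 were higher, 15 were lower and 137 overlapped. The 37 pairs found in both sorts and in neither bulk library count as higher on both scales. edgeR called 0 of 162 pairs by reads (0%, 4 under an unadjusted p of 0.05) and 0 of 45 by clonotypes (0%, 5 under an unadjusted p of 0.05). DESeq2 called 77 of the 162 by reads (47.5%) and 0 of the 45 by clonotypes. Its size factor for these pair reads was 0.275 in the CD103hi library and 2.58 in bulk dermal B, which does not follow their read totals, and with library totals in place of size factors it called 52.

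TRBV20 TRBJ2-2 was the leading pair of the sorts by reads. It took 8.50% of CD103+ and 0.537% of CD103hi reads over 7 and 3 clonotypes, against none in either bulk library. TRBV12-2 TRBJ1-4 took 7.55% of CD103hi reads over 6 clonotypes, with 1 read in the CD103+ library and none in either bulk library. TRBV16 TRBJ1-1 mirrored it, with 5.84% of CD103+ reads, 1 CD103hi read and none in either bulk library. These 3 pairs were thus each carried mainly by a single sort. Their edgeR adjusted p was 0.522 for each.

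TRBV13-1 TRBJ2-7 was present at similar levels in both sorts, with 2.29% of CD103+ and 3.64% of CD103hi reads, against 0.0340% in bulk dermal A and none in bulk dermal B. The epidermal library of the sorts' set held it at 2.22%. TRBV17 TRBJ2-7 and TRBV5 TRBJ1-3, named after their values were seen, shared this pattern. TRBV17 TRBJ2-7 took 1.78% of CD103+ and 2.27% of CD103hi reads over 4 and 8 clonotypes, TRBV5 TRBJ1-3 took 1.58% and 2.44% over 3 and 13, and bulk dermal A and B held neither. Both were also found in the epidermal library of the same set, at 2.38% and 2.69% of its reads.

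Bulk libraries led with TRBV13-3 pairs. TRBV13-3 TRBJ2-7 took 3.45% of CD103+ and 1.93% of CD103hi reads, against 6.52% in bulk dermal A and 19.1% in bulk dermal B. Its bulk dermal B reads lay in 2 clonotypes. TRBV13-3 TRBJ2-5 took 0.443% and 0.0440% of CD103+ and CD103hi reads, against 13.8% and 0.998% in bulk dermal A and B. Most of its bulk dermal A reads were the largest clonotype of that library. TRBV13-3 TRBJ2-2 took 0.611% and 0.00943% of CD103+ and CD103hi reads, against 6.71% and 2.44% in bulk dermal A and B, and 0.813% and 0.438% of clonotypes against 2.98% and 2.60%. TRBV13-3 TRBJ1-1, by contrast, overlapped, at 5.56% and 0.974% of CD103+ and CD103hi reads against 9.20% and 4.68% in bulk dermal A and B. TRBV14 TRBJ1-1 took 0.00700% and 0.00943% of CD103+ and CD103hi reads, against none in bulk dermal A and 9.20% in bulk dermal B. The bulk dermal B reads of this pair were 1 clonotype.

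By clonotypes the pairs most used in the sorts were TRBV13-3 TRBJ1-1, TRBV5 TRBJ2-3, TRBV13-3 TRBJ2-7, TRBV16 TRBJ2-7 and TRBV13-2 TRBJ2-5, and all 5 overlapped with the bulk libraries. TRBV5 TRBJ2-3, the leading bulk pair as well, took 1.22% of CD103+ and 4.38% of CD103hi clonotypes, against 0.851% in bulk dermal A and 7.79% in bulk dermal B. TRBV13-2 TRBJ2-3 did not overlap, at 1.02% and 1.31% of CD103+ and CD103hi clonotypes against 5.53% and 2.60% in bulk dermal A and B (edgeR log2 fold change -1.86, adjusted p = 0.409). TRBV19 TRBJ2-4 had no clonotype in either sort, against 2 in bulk dermal A and 4 in bulk dermal B. It took no read in either sort, against 0.692% of bulk dermal A and 0.0505% of bulk dermal B reads. It was too rare for the test of the 4 libraries, and it was the only pair called when the 3 epidermal libraries were fitted along (edgeR adjusted p = 0.0481). That call was lost with library set as a block, where no pair was called and the lowest adjusted p was 0.978. The epidermal library of the sorts' set held 9 TRBV19 TRBJ2-4 clonotypes, so the pair was found in that set.

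CDR3 loops were shorter in both sorts. They averaged 13.5 residues in the CD103+ library and 13.2 in the CD103hi library, against 14.0 in bulk dermal A and 13.9 in bulk dermal B, each clonotype counted once. The mean was 13.4 ± 0.19 residues in the sorts and 13.9 ± 0.13 in the bulk libraries (SD, n = 2 each), a difference of -0.580 residues (exact two-sided permutation p = 0.333). Over the 77 largest clonotypes of each library, which are all those of bulk dermal B, the CD103+ and CD103hi means were 13.83 and 13.08. They were 14.34 and 13.86 in bulk dermal A and B. CD103+ and bulk dermal B then hardly differed. Loops of 15 or more residues made up 28.0% of CD103+ and 18.2% of CD103hi clonotypes, against 42.6% in bulk dermal A and 37.7% in bulk dermal B. Loops of 12 or fewer made up 24.8% and 27.8% of CD103+ and CD103hi clonotypes, against 15.3% and 14.3% in bulk dermal A and B. By reads the share of 15 or more residues overlapped, at 27.4% and 11.8% in the sorts against 50.9% and 26.0% in bulk dermal A and B. That of 12 or fewer did not, at 20.7% and 33.1% against 6.73% and 15.3%. The epidermal libraries averaged 13.1 residues in the set of the sorts, 13.2 in that of bulk dermal A and 13.1 in that of bulk dermal B, so every dermal library lay above the epidermal library of its set, by 0.453 and 0.186 residues in the CD103+ and CD103hi libraries against 0.873 and 0.746 in bulk dermal A and B.

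Weighted by reads, the CD103hi library stood apart. Its mean was 12.8 residues, against 13.7 in the CD103+ library, 14.4 in bulk dermal A and 13.7 in bulk dermal B. Loops of 10 or fewer residues took 1.83% of CD103+ and 13.8% of CD103hi reads, against 0.00378% in bulk dermal A and 0.00721% in bulk dermal B. In clonotypes those shares were 3.66% and 5.91% in the CD103+ and CD103hi libraries, against 0.426% and 3.90% in bulk dermal A and B. The bulk dermal A share was 1 incomplete sequence of 6 residues, and incomplete sequences were counted in every library here. The short loops of the CD103hi library were thus also among its larger clones, 3 of which are printed near the start.

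**Figure D4:**
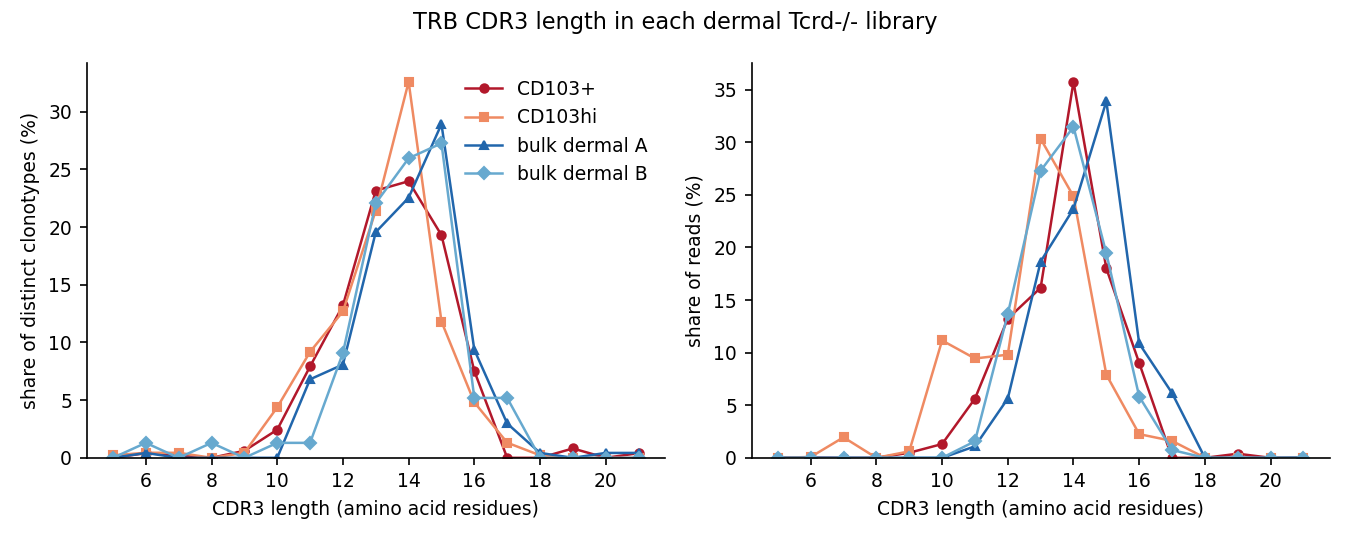
Share (%) of distinct clonotypes (left panel) and of reads (right panel) by CDR3 length in amino acid residues, 1 line per dermal Tcrd-/- library. In the left panel the sort lines peak at 14 residues and the bulk lines at 15, and in the right panel the CD103hi line has a shoulder at 10 residues with 11.2% of reads.

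Junctions without any inserted base were more frequent in both sorts. By the deposited positions they made up 31.1% of CD103+ clonotypes (153 of 492, 95% Wilson interval 27.2 to 35.3%) and 45.1% of CD103hi clonotypes (206 of 457, 40.6 to 49.7%). They made up 18.3% of bulk dermal A clonotypes (43 of 235, 13.9 to 23.7%) and 18.2% of bulk dermal B clonotypes (14 of 77, 11.2 to 28.2%). The mean share was 38.1 ± 9.88% in the sorts and 18.2 ± 0.0821% in the bulk libraries (SD, n = 2 each), a difference of 19.8 percentage points (exact two-sided permutation p = 0.333). Without the CD103hi library the difference was 12.9 points. Over the 77 largest clonotypes of each library the share was 23.4% and 53.2% in the CD103+ and CD103hi libraries. It was 15.6% and 18.2% in bulk dermal A and B, so CD103+ and bulk dermal B lay closer together. Weighted by reads the shares were 26.2% and 47.7% in the CD103+ and CD103hi libraries, against 23.1% and 8.88% in bulk dermal A and B.

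The epidermal libraries had 46.4% insert-free clonotypes in the set of the sorts, 46.2% in that of bulk dermal A and 37.5% in that of bulk dermal B. Every dermal library lay below the epidermal library of its own set, by 15.3 and 1.36 percentage points in the CD103+ and CD103hi libraries (values of -15.3 and -1.36), against 27.9 and 19.3 points in bulk dermal A and B (values of -27.9 and -19.3). The difference between sorts and bulk libraries thus remained 15.3 points after subtraction of the epidermal library of the set. The wild-type dermal library had 20.8% and the Tcrd-/- lymph node library 17.4%.

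**Figure D5:**
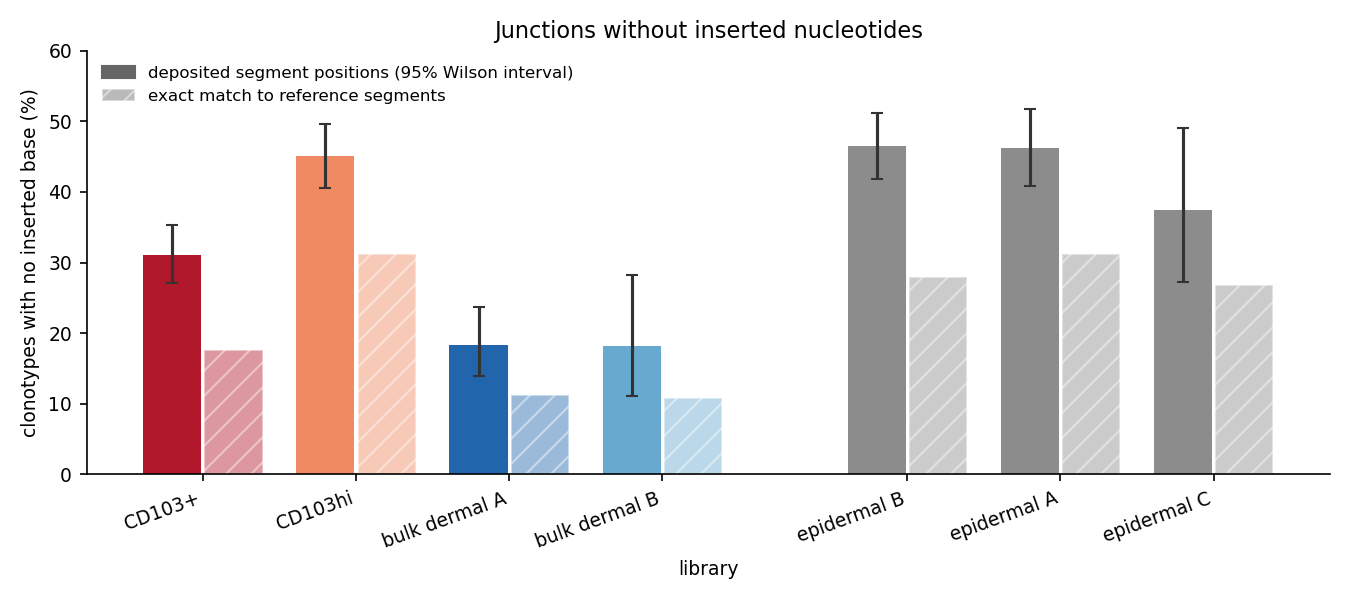
Share (%) of clonotypes with no inserted base in each library, by the deposited segment positions (solid bars, with 95% Wilson intervals) and by exact match to reference segments (hatched bars), for the 4 dermal Tcrd-/- libraries and, in grey, the epidermal Tcrd-/- libraries of the sets of the sorts (B), bulk dermal A (A) and bulk dermal B (C). The solid bars stand at 31.1% and 45.1% in the CD103+ and CD103hi libraries, above 18.3% and 18.2% in bulk dermal A and B.

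The absolute level depended on how germline bases were assigned. Deposited V ends passed the end of the reference segment in part of the complete clonotypes. This was 18.7% in the CD103+ and 16.1% in the CD103hi library, against 14.8% and 13.5% in bulk dermal A and B. Exact match to the reference V, D and J segments could be made for 90.0% of CD103+ and 88.4% of CD103hi clonotypes, against 94.9% in bulk dermal A and 96.1% in bulk dermal B. Insert-free junctions then made up 17.6% and 31.2% of CD103+ and CD103hi clonotypes, against 11.2% and 10.8% in bulk dermal A and B. By reads they took 14.2% and 61.4% in the CD103+ and CD103hi libraries, against 4.28% and 4.17% in bulk dermal A and B. The sorts stayed above the bulk libraries under both assignments, and the clonotype share was lower under exact match in each of the 4 libraries.

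The number of inserted bases separated the groups less well. It averaged 2.37 in the CD103+ library and 1.62 in the CD103hi library, against 3.98 in bulk dermal A and 2.51 in bulk dermal B, a difference of -1.25 bases (exact two-sided permutation p = 0.333). The CD103+ and bulk dermal B values lay close together. Without bulk dermal A the difference was -0.513 bases and without bulk dermal B -1.99, and it was -0.542 after subtraction of the epidermal library of the set. By exact match to reference the groups overlapped, at 6.19 and 4.97 bases in the CD103+ and CD103hi libraries against 7.90 and 5.00 in bulk dermal A and B. Junctions with 7 or more inserted bases made up 6.50% and 3.72% of CD103+ and CD103hi clonotypes, against 18.7% in bulk dermal A and 5.19% in bulk dermal B. The epidermal library of the set of bulk dermal A had 12.6% of them, and those of the sets of the sorts and of bulk dermal B had 3.22% and 4.17%.

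By the deposited positions, the parts of the junction showed where the sorts were shorter. V segments contributed 14.6 and 15.1 bases in the CD103+ and CD103hi libraries, against 13.6 and 14.5 in bulk dermal A and B, and J segments 18.2 and 17.8 bases against 18.0 and 18.2. D segments contributed 5.29 and 5.20 bases in the CD103+ and CD103hi libraries, against 6.52 and 6.27 in bulk dermal A and B. These D means count a clonotype without an assigned D segment as having no D base. They therefore mix how often a D segment was assigned with how long it was. A D segment was assigned in 65.7% of CD103+ and 62.8% of CD103hi clonotypes, against 77.0% in bulk dermal A and 74.0% in bulk dermal B. By these positions, fewer D bases and fewer inserted bases stood beside longer V stretches, though CD103+ and bulk dermal B lay close in V. By exact match to reference segments the V stretches overlapped. They were 12.4 and 12.5 bases in the CD103+ and CD103hi libraries, against 11.8 and 12.9 in bulk dermal A and B. Mean D bases per clonotype, counted in the same way, stayed lower under that match, at 6.19 and 6.40 bases against 6.75 and 6.69. Lengths among clonotypes with a D segment alone were not computed.

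Chains read as joining V directly to J, with neither a D base nor an inserted base assigned, numbered 33 in the CD103+ library and 52 in the CD103hi library, against 8 in bulk dermal A and 4 in bulk dermal B. These counts include incomplete CDR3 sequences, which were more frequent among the clonotypes of the sorts (shares at the end). An example is the TRBV21 TRBJ2-1 sequence found in both sorts and bulk dermal A. The chains were not recounted on complete CDR3 sequences alone. As shares of clonotypes these were 6.71% and 11.4% in the CD103+ and CD103hi libraries, against 3.40% and 5.19% in bulk dermal A and B, so the CD103+ and bulk dermal B shares lay close together. They took 5.35% of CD103+ and 17.8% of CD103hi reads, against 0.289% in bulk dermal A and 0.00961% in bulk dermal B. The higher insert-free share was not limited to them. Among clonotypes with a D segment assigned, 37.2% in the CD103+ library and 53.7% in the CD103hi library had no inserted base, against 19.3% in bulk dermal A and 17.5% in bulk dermal B.

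The insert-free share was also compared within subsets of the clonotypes. Among those with at least 10 reads it was 27.3% in the CD103+ library and 49.4% in the CD103hi library, against 14.6% in bulk dermal A and 11.9% in bulk dermal B. Within TRBV13-3, the segment that leads the bulk libraries, it was 27.4% and 29.7% of CD103+ and CD103hi clonotypes, against 13.5% and 16.7% in bulk dermal A and B, where bulk dermal B had 12 TRBV13-3 clonotypes. Within TRBJ2 it was 33.4% and 47.5% in the CD103+ and CD103hi libraries, against 16.9% and 13.3% in bulk dermal A and B. Within TRBJ1 the groups overlapped, at 26.25% and 39.4% in the CD103+ and CD103hi libraries against 22.2% and 35.3% in bulk dermal A and B, the last of which rests on 17 clonotypes. Of the 15 TRBV segments seen in all 4 libraries, the share was higher in both sorts than in both bulk libraries for 8 and lower for 2, and it overlapped for 5. Within TRBV1 it was 20.9% of 43 CD103+ and 44.7% of 47 CD103hi clonotypes, against none of 13 in bulk dermal A and none of 10 in bulk dermal B. TRBV16 went the other way, at 39.2% of 51 CD103+ and 42.9% of 21 CD103hi clonotypes, against 5 of 10 in bulk dermal A and 2 of 4 in bulk dermal B. TRBV13-2 overlapped, at 40.6% and 31.6% in the CD103+ and CD103hi libraries against 21.95% in bulk dermal A and 3 of 5 clonotypes in bulk dermal B.

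Few chains were shared between a sort and a bulk library. Counted as the same V, J and CDR3 residues, the CD103+ library shared 3 chains with bulk dermal A and the CD103hi library shared 4 with it, while neither shared any with bulk dermal B. Bulk dermal A and B shared none with each other. The CD103+ and CD103hi libraries, which belong to 1 set, shared 32, which took 18.4% of CD103+ and 15.1% of CD103hi reads. Of their 30 shared nucleotide clonotypes, 9 were traces in the CD103+ library and 6 in the CD103hi library, by the definition of traces given at the end. With the epidermal library of their set the CD103+ library shared 81 chains (6.86% of CD103+ and 66.5% of epidermal reads) and the CD103hi library 10. Of the 80 nucleotide clonotypes shared by the CD103+ and epidermal libraries, 58 were traces in the CD103+ library and 6 in the epidermal library. Of the 10 shared by the CD103hi and epidermal libraries, 7 and 1 were traces. Bulk dermal A shared 29 chains with the epidermal library of its set, where 20 of 27 shared nucleotide clonotypes were traces in bulk dermal A. Bulk dermal A shared 34 with the lymph node library of its set, which took 34.8% of bulk dermal A reads. Of their 25 shared nucleotide clonotypes, 2 were traces in bulk dermal A and 11 in the lymph node library. Bulk dermal B shared 9 chains with the epidermal and 13 with the wild-type dermal library of its set. Of the 9 nucleotide clonotypes shared with the epidermal library, 2 were traces in each of the libraries. Of the 12 shared with the wild-type dermal library, 4 were traces in bulk dermal B. The 3 chains shared by the CD103+ library and bulk dermal A took 4.91% of CD103+ reads, against 1.65% of bulk dermal A reads. The 4 chains shared by the CD103hi library and bulk dermal A took 0.698% of CD103hi reads, against 3.74% of bulk dermal A reads.

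A single 15-residue chain, TRBV13-3 joined to TRBJ1-1 through TRBD1, made up most of the shared reads in either sort. It is printed because its 2 main nucleotide versions, which encode the same residues, both occurred in 3 libraries of 2 library sets.
TRBV13-3 TRBJ1-1 version with 1 inserted base: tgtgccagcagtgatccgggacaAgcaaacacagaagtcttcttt
TRBV13-3 TRBJ1-1 version with 0 inserted bases: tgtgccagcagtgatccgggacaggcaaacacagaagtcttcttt
The counts of 1 and 0 inserted bases are by the deposited positions, and exact match to reference segments gave 4 and 2. The version with 1 inserted base by the deposited positions had 568 CD103+ and 49 CD103hi reads, against 639 in bulk dermal A. The version with 0 by those positions had 606 CD103+ and 138 CD103hi reads, against 225 in bulk dermal A. Over all versions the chain took 2.74% of CD103+ and 0.597% of CD103hi reads, against 1.63% of bulk dermal A reads and none in bulk dermal B. A related chain of the same segments and length had 5 CD103hi reads, against 1113 reads in bulk dermal A (2.10%). The remaining shared chains were a TRBV16 TRBJ2-7 chain with 918 CD103+ and 5 bulk dermal A reads, a TRBV13-2 TRBJ2-4 chain with 2 CD103hi reads and 1 bulk dermal A read, and an incomplete TRBV21 TRBJ2-1 junction. That TRBV13-2 chain had 654 reads in the epidermal library of the set of bulk dermal A.

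Traces of other libraries of the same set can add small clonotypes. Clonotypes whose nucleotide sequence was over 100 times more abundant in a library of the same set numbered 63 in the CD103+ library and 9 in the CD103hi library, against 20 in bulk dermal A and 5 in bulk dermal B. They held at most 0.247% of the reads of any of the 4. Incomplete CDR3 sequences, lacking the first cysteine or the last phenylalanine or tryptophan, made up 9.96% of CD103+ and 11.6% of CD103hi clonotypes, against 5.11% in bulk dermal A and 3.90% in bulk dermal B, and at most 0.993% of reads. Leaving out traces or incomplete sequences kept the direction of all 8 measures.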

How the data were processed

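Sorted T cells were lysed, and TRB transcripts were copied by 5′ RACE, amplified and sequenced on an Illumina MiSeq, per the labels' protocols. The deposited tables list 1 clonotype per line with a read count and, per the file headers, its fraction of the library's reads, and give V end, D start, D end and J start positions in the CDR3. The deposited positions were read as counted from 0. How clonotypes were called and which genome build was used are not given in the sources used here.

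Reads and distinct clonotypes per TRBV, TRBJ and V-J pair were tested with edgeR 4.0.16 (R 4.3.3; quasi-likelihood, older fit, common dispersion, library totals as sizes, at least 10 counts over the fitted libraries, Benjamini-Hochberg adjusted p threshold 0.05), with both sorts as 1 group. The steps were checked on simulated data with the dispersion of these libraries. By reads, edgeR found 1.5% of simulated 16-fold changes in TRBV segments, 28% in TRBJ segments and 0.125% in V-J pairs. By clonotypes it found 78.5%, 100% and 47.75%. A count of 0 called by reads therefore does not show that the shares were equal. 8 measures per library were compared by exact permutation over 6 splits. Group values are mean ± SD over libraries, and intervals are 95% Wilson. Nothing says that the pools came from separate animals, so p-values measure only the spread between these libraries, which may be technical. Tables were read with Python 3.11.15 and pandas 2.3.3, and plots were drawn with matplotlib 3.10.9.

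Named segments were those with the 5 highest mean shares of reads or clonotypes in either group and the 5 largest fold changes by clonotypes among segments without overlap, all TRBJ, and the 5 leading V-J pairs of each group on each scale. Named clonotypes were the 3 largest of each library, its largest insert-free clonotypes and those shared between a sort and a bulk library. The members and lists (MAIT, NKT, TRBV12, TRBV13, TRBJ1, TRBJ2) were chosen with earlier results of these data known. Alternatives were read minima of 2 and 10, no traces, complete CDR3 only and each library left out. Others were the newer edgeR fit, TMM factors, DESeq2 1.42.0 and no count filter. The 3 epidermal libraries were added with or without library set as a block, or the epidermal library of the set was subtracted. Further alternatives were read weighting, the 77 largest clonotypes of each library and amino acid clonotypes. Added after seeing the data were removal of 1-base copies with at most 5% of a neighbour's reads, junctions by exact match to GENCODE M21 segments (at least 3 matching D bases), and DESeq2 with library totals.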

Additional observations from a re-analysis of the deposited data

How the results depend on the processing

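The count of called features in each of the 6 edgeR tests was 0 under most alternatives. For TRBV segments by reads it was between 0 and 1 when a library was left out (1, TRBV13-3, without the CD103+ library), 5 with DESeq2 and 7 with DESeq2 on library totals. For V-J pairs by clonotypes it was 1 with the 3 epidermal libraries fitted as a further group, and for V-J pairs by reads 77 with DESeq2 and 52 with DESeq2 on library totals. The cause of these differences was not tested. Where a left-out library leaves a group with 1 library, that library was assumed to vary like the other group. Of the single-segment fold changes without overlap, 380 values over the alternatives kept their direction and side of the threshold, 11 passed it newly and 2 turned. All 8 measures kept their direction with a read minimum of 2 or 10, without traces, without incomplete CDR3 or 1-base copies, and with any library left out. Subtraction of the epidermal library of the same set turned the read share of the 10 largest clonotypes to +10.9 percentage points and the log2 inverse Simpson index to -0.42, and with library set as a block the TRBJ2-3 fold change turned to 0.12 by clonotypes and 1.12 by reads on the log2 scale; why was not tested. No paired analysis was possible because the CD103 sorts carry no replicate letter and each gate has 1 library. Bulk dermal B, with 77 clonotypes, limits every clonotype share: 1 clonotype there is over 1% of the library.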
